A study of Homo sapiens with 18 samples.

Results

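The genes described here are 46 that carry out or control DNA replication in S phase, chosen by name from the 58050 gene identifiers of the deposited table, and all 46 had enough reads to be tested. They were grouped by role into 12 licensing genes, 5 helicase activation genes, 8 polymerase and primase genes, 5 genes of the sliding clamp and its loader, 3 single-strand binding genes, 2 genes for joining Okazaki fragments, 4 nucleotide supply genes, 4 regulators of the passage from G1 to S phase (G1/S) and 3 chromatin assembly genes. MCM10, an initiation factor, and GMNN were counted with the licensing genes, though neither is a part of the loading machinery itself. The samples were KNS-42 cells, an established human glioma line, all of which expressed the Cas9 nuclease. Cells that carried a codon-optimised DDX3X (DDX3Xoe) or DDX3Y (DDX3Yoe) and parental cells each received guide RNA 395, which is directed at DDX3X, or a guide to AAVS1, the safe-harbour site in PPP1R12C, as control. RNA was taken on day 7 after lentiviral transduction and its 3' ends were sequenced. The 6 groups had 3 libraries each, and the labels do not say whether the cells were single clones, whether the replicates were separate cultures, or what a replicate number stands for. The p-values therefore measure the spread between these libraries, which may be partly technical. In comparisons between kinds of cells, the added gene and any other difference between those cells cannot be told apart.

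Before S phase, the origin recognition complex with CDC6 and CDT1 loads the ring-shaped MCM2-7 helicase onto DNA, a step called licensing, and CDC45 and the GINS complex then turn the loaded rings into moving helicases. DNA polymerase alpha and primase start each strand, polymerases delta and epsilon extend it while held by the PCNA clamp, and ribonucleotide reductase, thymidylate synthase and thymidine kinase supply the precursors. Most of these genes are transcribed in a wave at the G1/S transition under E2F transcription factors, so their RNA is widely used as a readout of proliferation. In bulk RNA, fewer cells in S phase and less of these RNAs per cell cannot be told apart.

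The sequence most closely tied to this wave is the E2F motif of the promoter, searched here as the letters TTTCCCGC, TTTCGCGC, TTTGCCGC and TTTGGCGC on both strands. RefSeq promoters (GRCh38.p14, 250 bases before to 50 bases after the annotated start) were matched for 39 of the 46 members, and 21 of these 39 (53.85%) held at least 1 of the letters in at least 1 promoter, against 687 of 10453 tested genes with a promoter (6.572%) and 1090 of all 27305 (3.992%). RRM2, a gene also described below, held none of the letters in its promoters, which are not printed. The promoters of 4 genes named below are printed as examples that were chosen by name and do not stand for the 39. Any E2F letters are in capitals, 5' to 3' on the gene's strand.
POLA1, chrX:24693668-24693967, plus strand: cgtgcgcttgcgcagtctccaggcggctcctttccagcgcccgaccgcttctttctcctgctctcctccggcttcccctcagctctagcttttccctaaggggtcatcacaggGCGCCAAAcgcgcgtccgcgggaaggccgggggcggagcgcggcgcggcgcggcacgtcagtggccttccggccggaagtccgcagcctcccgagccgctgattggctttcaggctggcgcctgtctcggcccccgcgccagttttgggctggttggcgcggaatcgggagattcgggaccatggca
E2F2, chr1:23531184-23531483, minus strand: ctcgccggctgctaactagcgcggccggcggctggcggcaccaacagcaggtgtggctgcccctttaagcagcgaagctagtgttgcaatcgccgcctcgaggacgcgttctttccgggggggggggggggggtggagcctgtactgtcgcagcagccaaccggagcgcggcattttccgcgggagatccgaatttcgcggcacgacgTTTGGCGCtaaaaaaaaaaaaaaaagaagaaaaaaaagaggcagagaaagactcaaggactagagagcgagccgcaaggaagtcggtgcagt
TYMS, chr18:657403-657702, plus strand: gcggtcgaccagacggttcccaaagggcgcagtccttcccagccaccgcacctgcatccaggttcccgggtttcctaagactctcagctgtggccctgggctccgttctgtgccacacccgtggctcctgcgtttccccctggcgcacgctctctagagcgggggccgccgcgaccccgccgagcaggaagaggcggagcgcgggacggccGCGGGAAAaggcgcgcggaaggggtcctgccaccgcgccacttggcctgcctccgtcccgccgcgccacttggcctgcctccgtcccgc
CCNE1, chr19:29811741-29812040, plus strand: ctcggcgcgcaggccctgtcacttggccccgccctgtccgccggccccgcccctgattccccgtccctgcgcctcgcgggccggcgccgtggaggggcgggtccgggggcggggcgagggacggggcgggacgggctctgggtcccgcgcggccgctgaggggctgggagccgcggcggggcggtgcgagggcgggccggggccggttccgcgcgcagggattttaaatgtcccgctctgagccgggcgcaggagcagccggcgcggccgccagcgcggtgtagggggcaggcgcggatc
The capitals begin 137 bases before the start in POLA1, 42 bases before it in E2F2 and 39 bases before it in TYMS, and the letters were not in the CCNE1 window. By role, the E2F letters were in 7 of 10 licensing genes, 4 of 7 polymerase and primase genes, 2 of 5 clamp and loader genes and 1 of 4 nucleotide supply genes with a promoter. The cell-cycle homology region TTTGAA, searched on both strands and known from genes of G2 phase and mitosis (G2/M), was in 1 of the 39 promoters (2.564%), against 13.65% of tested genes and 18.17% of all, and the CCAAT box was in 23 (58.97%), against 43.54% of tested genes and 39.72% of all. Neither shares its letters with an E2F motif, and a match is a run of letters, not a measured binding site.

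The 18 libraries held 5.67 to 13.2 M reads on genes (M, 1e6), and the 46 members took between 0.0820 and 0.205% of them. Values below are normalised reads per library in the order of replicates 1, 2 and 3, and a fold change is a difference in log2(normalised reads + 1), tested in limma with Benjamini-Hochberg adjustment over the 15228 genes tested. A gene is called at an adjusted p under 0.05. The glial and neural progenitor markers SOX2, VIM, NES, GFAP and PAX6 were above 0 in all 18 libraries, while OLIG2 and S100B were at 0 in all. Of 11 markers of other cell types, the epithelial keratins KRT8 (31.6 to 108) and KRT18 (98.4 to 306) were above 0 in all 18 libraries, and MYOD1, of muscle, was at 0 in all. The blood cell markers PTPRC and CD14 reached 6.69 and 9.02, the endothelial markers PECAM1 and CDH5 40.5 and 10.5, the stromal markers DCN and LUM 22.2 and 14.9, EPCAM, of epithelium, 4.92 and ALB, of hepatocytes, 4.93.

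DDX3X, the targeted RNA helicase gene, had 861, 844 and 953 normalised reads in parental cells with guide 395, against 1780, 1923 and 1729 with AAVS1 (log2 fold change -1.03, SE 0.30, adjusted p 0.0800). In DDX3Yoe cells it had 878, 739 and 653 with guide 395, against 1379, 1557 and 1439 with AAVS1. In the libraries labelled DDX3Xoe it had 1416, 716 and 578 with guide 395, against 668, 1504 and 1162 with AAVS1. For DDX3X, both libraries labelled DDX3Xoe replicate 1 thus ran against their guide labels, and directions in DDX3Xoe cells are read with that in mind. In the same pair 17 interferon-stimulated genes had a median difference, guide 395 minus AAVS1, of 0.86 with 0 below 0. In replicate 2 of DDX3Xoe cells it was 0.80 with 1 below 0, the same direction. Whether the labels were exchanged was not tested.

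In parental cells the replication genes were lower with guide 395 than with AAVS1 in most cases, but no member passed the test. The median log2 fold change of the 46 members was -0.39, against 0.017 over all genes tested, with 33 members below 0 and 13 above. In same-numbered pairs the median was below 0 in replicates 1 and 2 but 0.049 in replicate 3, where 21 of 46 members were below 0. The count of called members was 0 of 46, beside 1.78% of all genes. At an unadjusted p under 0.05, 3 of the 46 were lower (MCM5, POLA1 and E2F2) and 0 higher, beside 8.40% of all genes lower and 8.49% higher, and edgeR and DESeq2 on the recovered reads also called 0 members. All 3 guide 395 libraries lay below all 3 AAVS1 libraries for 7 members, MCM4, MCM5, MCM10, GINS4, POLA1, TK1 and E2F2, and above them for 0, beside 9.86% of all genes lower and 10.7% higher. The 7 of 46 is a larger share than 9.86%, while the 3 of 46 is not larger than 8.40%. TK1 is among the 7 only by 100.345 (guide 395, replicate 2) against 100.406 (AAVS1, replicate 3), close to a tie. The difference in shares was not tested, and members vary together across libraries.

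Nucleotide supply stood lowest among the roles in this comparison, with a median of -0.88 over its 4 genes, all below 0. The 4 G1/S regulators had a median of -0.64, the 5 helicase activation genes -0.42, the 5 clamp and loader genes -0.40 with all below 0, and the 12 licensing genes -0.36 with 9 below 0. The 3 single-strand binding genes had a median of -0.24, the 8 polymerase and primase genes -0.12 with 4 below and 4 above 0, and the 2 Okazaki fragment genes -0.050. The 3 chromatin assembly genes had a median of 0.17 and all were above 0, but in edgeR only CHAF1A was (0.40), with CHAF1B at -0.15 and UHRF1 at -0.30, and likewise in DESeq2 (0.41, -0.14 and -0.27 in the same order). The differences between roles were not tested, since members of a role are not replicates.

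**Figure D1:**
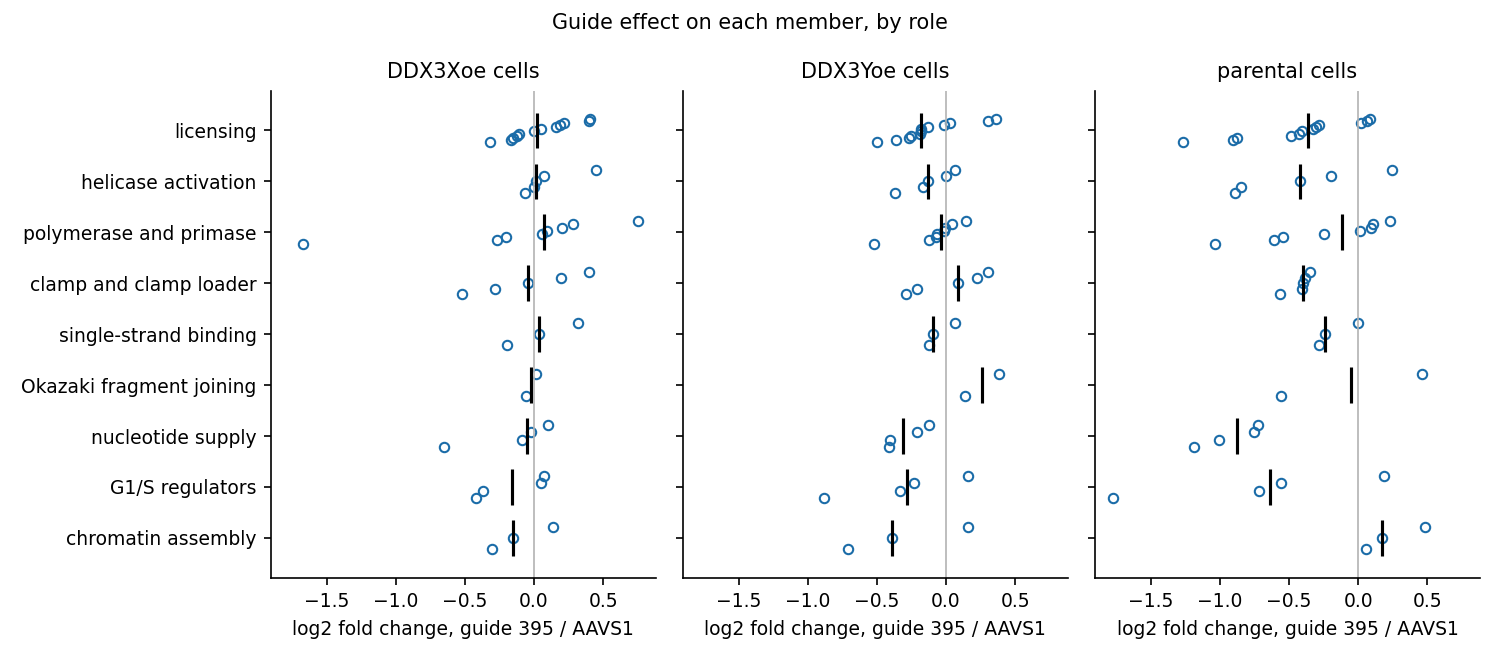
Each circle is 1 of the 46 members and the x axis is its log2 fold change, guide 395 over AAVS1, in DDX3Xoe, DDX3Yoe and parental cells; rows are roles and black bars are role medians. In parental cells the bar for nucleotide supply sits at -0.88 and that for polymerase and primase at -0.12, while in DDX3Xoe cells those bars sit at -0.053 and 0.075.

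Among the licensing genes, MCM5, a subunit of the replicative helicase (chromosome 22, 35400063 to 35425430, plus strand, GRCh38), had 115, 154 and 187 normalised reads in parental cells with guide 395, against 292, 665 and 239.9 with AAVS1 (log2 fold change -1.26, SE 0.57, adjusted p 0.268). MCM4, another subunit of the same ring, had 445, 473 and 558 in parental cells with guide 395, against 941, 1371 and 600.2 with AAVS1 (log2 fold change -0.91, SE 0.50, adjusted p 0.38). In both genes every library with guide 395 lay below every library with AAVS1, and the AAVS1 libraries varied among themselves more than those with guide 395. MCM2, a further subunit named after its values were seen, had 556, 419 and 343 in parental cells with guide 395, against 877, 326 and 269 with AAVS1, and these groups overlapped (log2 fold change 0.02). The other 9 licensing genes, MCM3, MCM6, MCM7, MCM10, CDC6, CDT1, GMNN, ORC1 and ORC6, had log2 fold changes between -0.88 and 0.087.

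For helicase activation, GINS4, a subunit of the GINS complex, had 16.7, 25.6 and 26.1 in parental cells with guide 395, against 52.4, 33.5 and 39 with AAVS1 (log2 fold change -0.84, SE 0.43, adjusted p 0.34), with no overlap between the groups. GINS2, another subunit, had 92.3, 120.0 and 66.8 in parental cells with guide 395, against 148, 305 and 105 with AAVS1 (log2 fold change -0.89, SE 0.53, adjusted p 0.422), where the highest library with guide 395 lay above the lowest with AAVS1. CDC45, GINS1 and GINS3 had log2 fold changes between -0.42 and 0.25.

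Among the polymerases, POLA1, the catalytic subunit of DNA polymerase alpha (chromosome X, 24693919 to 24996986, plus strand), had 82.6, 171 and 122 in parental cells with guide 395, against 299, 225 and 223 with AAVS1 (log2 fold change -1.03, SE 0.43, adjusted p 0.223), the smallest adjusted p of any member. Every library with guide 395 was below every library with AAVS1, and replicate 1 was the lowest library with guide 395 and the highest with AAVS1. POLD1, the catalytic subunit of polymerase delta, had 37.8, 22.6 and 32.3 in parental cells with guide 395, against 35.6, 40.9 and 60.2 with AAVS1 (log2 fold change -0.54, SE 0.45, adjusted p 0.58), and its groups overlapped. The remaining genes of this role, POLA2, POLD3, POLE, POLE2, PRIM1 and PRIM2, lay between -0.61 and 0.23. POLE2 and PRIM1 rested on few reads, with 0 to 33.5 and 1.43 to 67.1 normalised reads per library.

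Of the clamp loader, RFC2 had 519.6, 438 and 373 in parental cells with guide 395, against 531, 799 and 416 with AAVS1 (log2 fold change -0.35, SE 0.29, adjusted p 0.585). RFC3, a further subunit, had 95.8, 167 and 145 in parental cells with guide 395, against 169.9, 292 and 153 with AAVS1 (log2 fold change -0.56, SE 0.49, adjusted p 0.603). Both overlapped between the guides. PCNA, the clamp itself and named after its values were seen, had 367, 185 and 186 in parental cells with guide 395, against 702, 267 and 157 with AAVS1 (log2 fold change -0.41), so that replicate 1 was high under both guides. RFC4 and RFC5 had log2 fold changes of -0.39 and -0.40.

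RPA1 and RPA3, subunits of the protein that coats single-stranded DNA, overlapped between the guides as well. RPA1 had 533, 397 and 440.1 in parental cells with guide 395, against 792, 525 and 368 with AAVS1 (log2 fold change -0.24, SE 0.37, adjusted p 0.8). RPA3 had 577, 353 and 294 in parental cells with guide 395, against 655, 484 and 341 with AAVS1 (log2 fold change -0.28, SE 0.36, adjusted p 0.745). The remaining subunit gene, RPA2, had a log2 fold change of -0.00029. Of the genes that finish Okazaki fragments, FEN1, the flap nuclease, had 835, 329.6 and 261 in parental cells with guide 395, against 716, 212 and 181 with AAVS1 (log2 fold change 0.46, SE 0.80, adjusted p 0.823). LIG1, the ligase, had 175, 319.7 and 189 in parental cells with guide 395, against 267, 506 and 251 with AAVS1 (log2 fold change -0.56, SE 0.41, adjusted p 0.524). Neither was called and both overlapped between the guides. In same-numbered pairs LIG1 was below 0 in all 3 (-0.61, -0.66 and -0.41) and FEN1 above 0 in all 3 (0.22, 0.63 and 0.53).

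The nucleotide supply genes were lower with guide 395 in replicates 1 and 2, while in replicate 3 the differences were smaller and went in both directions. TYMS, thymidylate synthase (chromosome 18, 657604 to 673578, plus strand), had 207, 141 and 165 in parental cells with guide 395, against 529, 669.8 and 161 with AAVS1 (log2 fold change -1.18, SE 0.76, adjusted p 0.456). TK1, thymidine kinase, had 49.2, 100.3 and 98 in parental cells with guide 395, against 143, 278 and 100.4 with AAVS1 (log2 fold change -1.0, SE 0.66, adjusted p 0.47). Its groups did not overlap, but the highest library with guide 395 (100.345) and the lowest with AAVS1 (100.406) were nearly equal. RRM2, the small subunit of ribonucleotide reductase (chromosome 2, 10120698 to 10131419, plus strand), was named after its values were seen and had 181, 205 and 170.0 in parental cells with guide 395, against 492, 458 and 134 with AAVS1 (log2 fold change -0.75, SE 0.80, adjusted p 0.687). The AAVS1 library of replicate 3 lay among the guide 395 libraries for TYMS and below all of them for RRM2. RRM1, the large subunit, had 514, 597 and 351 in parental cells with guide 395, against 1361, 901 and 397 with AAVS1 (log2 fold change -0.72).

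Of the G1/S regulators, E2F2, a transcription factor of the E2F family (chromosome 1, 23506430 to 23531220, minus strand), had 12.3, 22.6 and 12.5 in parental cells with guide 395, against 53.7, 107 and 27.9 with AAVS1 (log2 fold change -1.77, SE 0.78, adjusted p 0.256). This was the lowest log2 fold change of the 46 members, with no overlap. E2F1, the best known activator of the family, had 176, 248 and 222 in parental cells with guide 395, against 250.4, 819.9 and 209.7 with AAVS1 (log2 fold change -0.72, SE 0.59, adjusted p 0.576). CCNE2, which encodes cyclin E2, had 20.2, 35.4 and 10.4 in parental cells with guide 395, against 28.2, 42.2 and 21.2 with AAVS1 (log2 fold change -0.55, SE 0.76, adjusted p 0.766). CCNE1, which encodes cyclin E1 (chromosome 19, 29811898 to 29824308, plus strand), had 81.8, 88.5 and 82.4 in parental cells with guide 395, against 45.7, 100.5 and 88.1 with AAVS1 (log2 fold change 0.18, SE 0.31, adjusted p 0.819), and replicate 1 with AAVS1 was the only low library. For the chromatin assembly genes, CHAF1A, the large subunit of chromatin assembly factor 1, had 695, 923 and 955 in parental cells with guide 395, against 585, 912 and 421 with AAVS1 (log2 fold change 0.48, SE 0.44, adjusted p 0.628). UHRF1, which helps maintain DNA methylation behind the fork, had 30.8, 11.8 and 18.8 in parental cells with guide 395, against 48.3, 19.8 and 4.46 with AAVS1 (log2 fold change 0.17, SE 0.94, adjusted p 0.951), few reads in either group. CHAF1B, a smaller subunit, had a log2 fold change of 0.056.

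**Figure D2:**
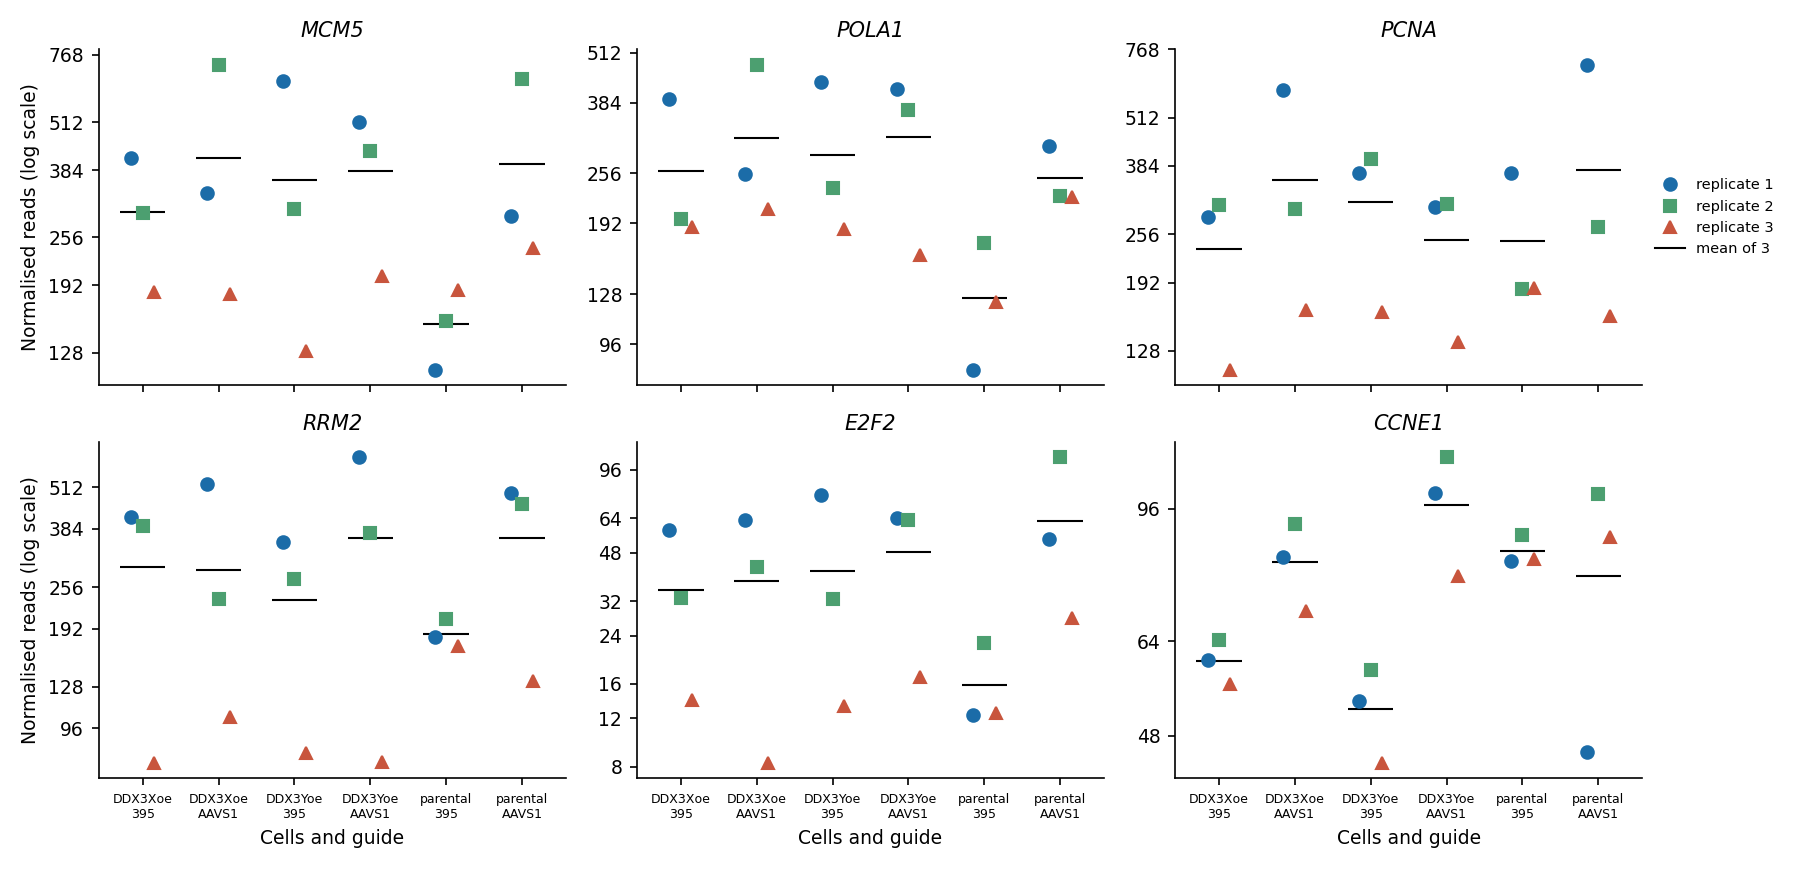
Normalised reads per library on a log2-spaced axis for MCM5, POLA1, PCNA, RRM2, E2F2 and CCNE1, with cells and guide on the x axis, the symbol giving the replicate number and the black line the mean of 3. For RRM2 the triangle of replicate 3 is the lowest point in every group, and for CCNE1 the 3 libraries with guide 395 lie below the 3 with AAVS1 in DDX3Yoe cells, and by their labels also in DDX3Xoe cells, where the guide labels of replicate 1 are in doubt.

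In parental cells the median over all members was below 0 in replicates 1 and 2 and near 0 in replicate 3. In same-numbered pairs, guide 395 minus AAVS1, the median of the 46 members was -0.62 in replicate 1, -0.56 in replicate 2 and 0.049 in replicate 3, with 38, 37 and 21 members below 0. The nucleotide supply median was -1.42, -1.31 and 0.0012, the licensing median -0.79, -0.75 and 0.17, the polymerase and primase median -0.58, -0.23 and 0.033 and the clamp and loader median -0.11, -0.87 and -0.076 in the same order. The median of the 4 G1/S regulators was below 0 in every pair (-0.48, -0.98 and -0.53). In replicate 3 E2F2 was at -1.10 and CCNE2 at -0.96, while E2F1 (0.083) and CCNE1 (-0.096) were near 0. E2F2 and CCNE2 rested on few reads there, 12.5 and 10.4 normalised reads with guide 395. The chromatin assembly median was -0.64, 0.017 and 1.18. The difference between the pairs was not tested. A total of 15 members were below 0 in all 3 pairs. Without the AAVS1 library of replicate 3 the median of all members was -0.63 and without that of replicate 2 it was -0.21, and without all libraries of replicate 3 or of replicate 2 it was -0.61 or -0.18.

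Other genes of the same pathways, from lists that do not share members with the 46, had no called member in parental cells. Of 36 other replication genes 0 were called and the median was -0.019. The smallest p-values were those of POLE4, a small subunit of polymerase epsilon (log2 fold change -0.83, adjusted p 0.111), and POLD2, a subunit of polymerase delta (-1.01, adjusted p 0.112, or 0.0352 with the replicate number as a block). Of 16 other nucleotide supply genes 0 were called (median -0.18), with NME1, a nucleoside diphosphate kinase, at -0.67 and CAD, which starts pyrimidine synthesis, at -0.61. Of 26 other G1/S regulators 0 were called (median -0.097), with E2F4 at 1.40 (adjusted p 0.163) and E2F7 at 1.3 (adjusted p 0.198), and of 16 replication checkpoint genes 0 were called (median 0.051), with RAD17 at 0.88 and FANCD2 at -1.05. The 19 G2/M genes had a median of -0.97 with all 19 below 0 and 0 called. Of them 12 were lower without overlap, beside 9.86% of all genes. With the replicate number as a block 3 were called lower, beside 341 of 15228 genes. PLK1, a mitotic kinase, was at -1.65 and TOP2A, a topoisomerase, at -2.0. Of 17 interferon-stimulated genes 3 were called higher (IFIT2, IRF7 and IFI27), beside 149 of 15228 genes. The progenitor marker NES was called lower (log2 fold change -1.71, adjusted p 0.00314). Mitochondrial transcripts took 7.78 to 11.1% of reads with guide 395, against 11.3 to 16.5% with AAVS1. The part of all these in the members' values was not tested.

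In DDX3Xoe and DDX3Yoe cells no member passed the test between the guides. The count of called members was 0 of 46 in each, beside 0% of all genes, and at an unadjusted p under 0.05 it was 0 members in DDX3Xoe cells (2.07% of all genes) and 1 in DDX3Yoe cells (1% of all genes), with 0 called in edgeR and DESeq2 as well. The median log2 fold change was 0.0059 in DDX3Xoe cells, against -0.016 over all genes, with 23 members below 0, and -0.13 in DDX3Yoe cells, against -0.0021 over all genes, with 32 below 0. In DDX3Xoe cells the median was 0.023 for licensing, 0.075 for polymerase and primase, -0.042 for clamp and loader and -0.053 for nucleotide supply. In DDX3Yoe cells these medians were -0.18, -0.039, 0.084 and -0.31 in that order, and all 4 nucleotide supply genes were below 0. Same-numbered pairs had medians of 0.00084, 0.11 and -0.12 in DDX3Xoe cells and of -0.17, -0.087 and -0.089 in DDX3Yoe cells. The DDX3Xoe median lay between -0.35 (without the library labelled guide 395 replicate 1) and 0.41 (without guide 395 replicate 3), and was -0.0088 without both libraries labelled replicate 1. The DDX3Yoe median was 0.23 without guide 395 replicate 3, 0.18 without AAVS1 replicate 1 and -0.43 without AAVS1 replicate 3.

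CCNE1 was the one member whose groups did not overlap in these cells. It had 53.3, 58.6 and 44.2 normalised reads in DDX3Yoe cells with guide 395, against 101, 112 and 78.1 with AAVS1 (log2 fold change -0.88, SE 0.31, adjusted p 1). In the libraries labelled DDX3Xoe it had 60.5, 64.3 and 56.2 with guide 395, against 82.7, 91.6 and 70.2 with AAVS1 (log2 fold change -0.42, SE 0.31, adjusted p 1). By these labels the groups do not overlap, and they do not without both libraries of replicate 1 either. With the guide labels of these exchanged they would overlap, since 82.7 lies above 60.5 and 70.2. All 3 libraries with guide 395 were below the AAVS1 libraries for 1 of 46 members in each comparison, beside 3.69% of all genes in DDX3Yoe cells and 2.04% in DDX3Xoe cells, so the count is near the background. The difference between its guide effect in DDX3Yoe and in parental cells was -1.06 (SE 0.44, adjusted p 0.990).

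The guide effect in the overexpressing cells was compared with that in parental cells through the difference of both log2 fold changes, which shares the parental libraries between both comparisons. The count of called members was 0 of 46 for DDX3Xoe minus parental, beside 0.046% of all genes, and 0 for DDX3Yoe minus parental, beside 0% of all genes. At an unadjusted p under 0.05 it was 0 (8.14% of all genes) and 1, CCNE1 (4.84%), and edgeR and DESeq2 called 0. The median difference was 0.34 for DDX3Xoe with 36 members above 0 and 0.30 for DDX3Yoe with 34 above 0, against -0.036 and 0.0032 over all genes. For nucleotide supply it was 0.78 and 0.69, for licensing 0.49 and 0.27, for clamp and loader 0.35 and 0.44 and for polymerase and primase 0.14 and 0.094. E2F2 had the highest single values, 1.85 (SE 1.11, adjusted p 0.706) and 1.44 (SE 1.11, adjusted p 1.00). Without parental AAVS1 replicate 3 the medians were 0.68 and 0.56. The first was 0.11 without the library labelled DDX3Xoe with guide 395 replicate 1, and the second was -0.044 without DDX3Yoe AAVS1 replicate 3.

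Under the control guide, the overexpressing cells had no member that passed the test against parental cells. The count of called members was 0 of 46 for DDX3Xoe against parental cells and 0 for DDX3Yoe against parental cells, beside 0% of all genes in each, and at an unadjusted p under 0.05 it was 0 (0.985% of all genes) and 1 (2.64%); edgeR and DESeq2 called 0. The median was -0.16 for DDX3Xoe with 35 members below 0, against -0.017 over all genes with 7969 of 15228 below 0. For DDX3Yoe it was -0.11 with 29 members below 0, against -0.027 over all genes with 8019 below 0. Without AAVS1 replicate 3 of the overexpressing cells the member medians were 0.16 and 0.30, and without parental AAVS1 replicate 2 they were 0.057 and 0.13. The 1 member was POLD3, a polymerase delta subunit named after its values were seen. It had 514, 399 and 286 normalised reads in DDX3Yoe cells, against 229.6, 251 and 214 in parental cells (log2 fold change 0.75, SE 0.31, adjusted p 0.999). All 3 DDX3Yoe libraries were above the parental ones for this 1 of 46 members, beside 4.98% of all genes.

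The spread of the members between replicates of a group was wide beside the differences between groups. As a level per library, the mean over the 46 members of log2(normalised reads + 1) minus each member's mean over the 18 libraries was 0.58, 0.18 and -0.86 in DDX3Xoe cells with guide 395, against 0.68, -0.030 and -0.65 with AAVS1. In DDX3Yoe cells it was 0.50, 0.22 and -0.74 with guide 395, against 0.73, 0.26 and -0.65 with AAVS1. Replicate 3 was the lowest library in each of these groups. In parental cells it was -0.20, -0.15 and -0.35 with guide 395, against 0.43, 0.48 and -0.45 with AAVS1. The group means ± SD (n = 3 each) were -0.23 ± 0.10 for parental cells with guide 395 and 0.16 ± 0.52 with AAVS1, and the SD of the other 4 groups lay between 0.65 and 0.74. The median SD of a member within a group was 0.38 in parental cells with guide 395, against 0.40 for all genes, and between 0.60 and 0.80 in the other 5 groups, where that of all genes was between 0.32 and 0.56.

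**Figure D3:**
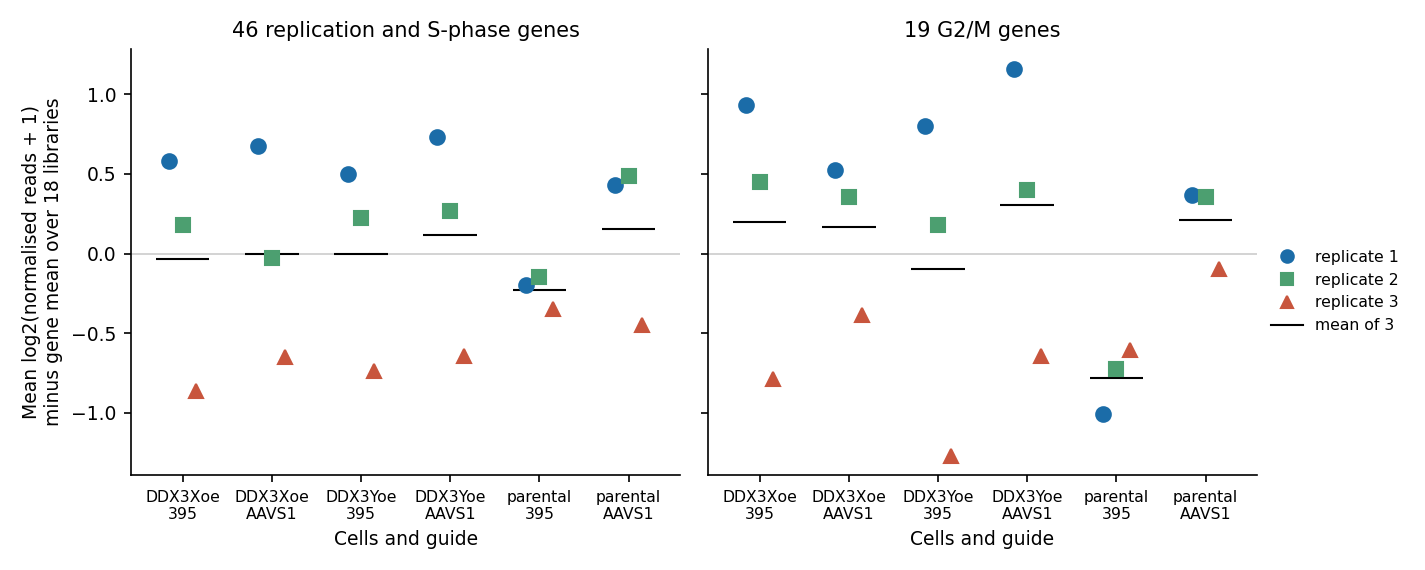
Mean log2(normalised reads + 1) per library minus each gene's mean over the 18 libraries, for the 46 replication and S-phase genes on the left and the 19 G2/M genes on the right, with cells and guide on the x axis, symbols for replicate numbers and black lines for the mean of 3. Replicate 3 is at or below -0.45 on the left in all groups but parental cells with guide 395, where the 3 libraries lie between -0.35 and -0.15.

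This difference between replicate numbers was tested after it had been seen, with a limma F test of the number in a model that also held the 6 groups. Of the 46 members 22 (47.8%) were called, beside 6.02% of all genes, and all 22 had their lowest mean in number 3, beside 2.58% of all genes called with that order. In total 45 of 46 members were lowest in number 3, beside 29.9% of all genes, the exception being PRIM2, a primase subunit. The median difference of the members was -0.92 for number 3 minus number 1, against 0.0037 over all genes, and -0.78 for number 3 minus number 2, against 0.035, while number 2 minus number 1 gave -0.20, against -0.032. The smallest adjusted p-values were those of RRM2 (0.00137), ORC6, a subunit of the origin recognition complex (0.00246), PCNA (0.00319), TYMS (0.00322) and MCM3 (0.00447). RRM2 had 417, 393 and 75.5 normalised reads in DDX3Xoe cells with guide 395, against 525, 236 and 104 with AAVS1, so that replicate 3 was the lowest in both. In DDX3Yoe cells it had 351, 272 and 80.7 with guide 395, against 631, 373 and 76.1 with AAVS1. MCM3 had 1277, 858 and 487 in DDX3Yoe cells with guide 395, against 1234, 986 and 644 with AAVS1.

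By role, all 4 nucleotide supply genes were called, as were both Okazaki fragment genes, 7 of 12 licensing genes, 3 of 5 clamp and loader genes, 2 of 4 G1/S regulators and 2 of 5 helicase activation genes. Of the remaining roles, 1 single-strand binding gene of 3 and 1 chromatin assembly gene of 3 were called, and 0 of 8 polymerase and primase genes. The median of number 3 minus number 1 was -1.76 for nucleotide supply, -1.0 for licensing, -0.75 for clamp and loader and -0.67 for polymerase and primase, so the last role was lower too without a called gene. Among promoters in the table, the E2F letters were in 10 of 19 called members and 11 of 20 members not called. The G2/M list had 9 of 19 genes called, all lowest in number 3, the other replication genes 7 of 36 and the interferon-stimulated genes 0 of 17.

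Within groups, number 3 minus the mean of numbers 1 and 2 had a median over the members of -0.049 in parental cells with guide 395, with 27 of 46 below 0, beside 7675 of 15228 genes. In the other 5 groups it was between -1.21 and -0.87, with 42 to 46 members below 0, beside 7053 to 7587 of 15228 genes. The difference between these groups was not tested. The members took 0.0820 to 0.0996% of reads in the 5 libraries of number 3 outside that group, and 0.153 to 0.205% in the 10 of numbers 1 and 2. The number 3 libraries had 8.01 to 12.03 M reads and 7.78 to 11.3% mitochondrial reads, against 7.80 to 13.2 M and 9.11 to 14.6% for number 1 and 5.67 to 8.90 M and 8.02 to 16.5% for number 2. The part of these in the difference was not tested. The count of 22, beside 6.02% of all genes, fell to 12 (2.45%) without the parental AAVS1 library of replicate 3, to 11 (2.94%) and 12 (2.20%) without the libraries of replicate 3 labelled DDX3Xoe with guide 395 and with AAVS1, to 8 (2.04%) without the DDX3Yoe AAVS1 library of replicate 3 and to 8 (1.96%) without both libraries labelled DDX3Xoe replicate 1. With 1 kind of cell in the fit, 16 members were called in DDX3Yoe cells, beside 1.72% of all genes, 0 in DDX3Xoe cells, beside 0%, and 6 in parental cells, beside 11.4%, a share near the background.

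Most members followed one another across libraries, and the same measure was not taken for other genes. The Pearson correlation of a member with the mean of the other 45 over the 18 libraries, which share their depth and scaling, had a median of 0.73 and was over 0.5 for 42 of 46. RRM2 (0.98), MCM10, an initiation factor (0.91), and TYMS (0.91) were highest. CCNE1 (0.16), PRIM2 (0.36), POLD1 (0.46) and PRIM1 (0.47) were lowest. With the group means removed the median was 0.80 and 43 of 46 were over 0.5, so members also varied together within groups. CCNE1 ranged from 44.2 to 112 normalised reads over the libraries, 2.54-fold, whereas E2F2 ranged from 8.26 to 107, 12.9-fold from few reads. A narrow range was not particular to CCNE1, since RPA2 ranged 2.14-fold and MCM7 2.61-fold. Exons of 16 members overlap a gene on the opposite strand in GENCODE 29, among them TYMS (ENOSF1 and TYMSOS) and FEN1 (TMEM258). The strand setting of the counting is not given in the sources used here, so any reads on such shared bases cannot be told apart. Exons of 7 members overlap another gene on the same strand, among them FEN1 (FADS2), PRIM1 (NACA) and CHAF1B (MORC3). A strand setting would not separate those. The libraries hold 3' ends, and whether any of these overlaps lies at the 3' end of a member was not checked. In the same annotation 7 members, among them RRM2, PCNA and TYMS, have pseudogene copies that may share reads with them.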

How the data were processed

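RNA of 18 samples of Cas9-expressing KNS-42 cells was sequenced from its 3' ends (QuantSeq), per the labels' protocols. The deposited table holds a normalised signal, which the values show to be gene counts that the authors scaled by a library's size factor. Tools in the submitters' processing notes are limma, featureCounts 1.5.1, RSEM 1.3.0 and STAR 2.5.2b, and the build is GRCh38; for the role of each tool, the annotation and the strand setting nothing is given in the sources used here. In every library 100% of values were whole multiples of the smallest one above 0, within 0.01 of a read, and these reads were recovered. Totals were 5.67 to 13.2 M reads (M, 1e6), so the number of reads limits the precision of members with few. Symbols came from GENCODE 29 (57446 of 58050 identifiers matched), and replicates of a group differed by more than sampling noise (chi-square over genes, 21.98 to 154.4 per degree of freedom).

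Values were tested as log2(value + 1) in limma 3.58.1 (R 4.3.3, intensity trend, 6 group means over 18 libraries, 12 residual degrees of freedom), on the 15228 genes with at least 10 in at least 3 libraries. Calls were made at a Benjamini-Hochberg adjusted p under 0.05 in each of 7 comparisons. The fits were tested on simulated counts, for the guide comparison in parental cells alone. These counts had the same spread setting for all genes and no difference between replicate numbers. They therefore do not show how the fits behave with the spread seen here, and the F test of the replicate number was not covered. Alternatives were pseudocounts of 0.1 and 5, no filter or one of 50, TMM scaling, median centring, the compared cells alone, the replicate number as a block, edgeR 4.0.16 and DESeq2 1.42.0 on the recovered reads, and leaving out libraries. The F test of the replicate number and its alternatives were added after the data were seen. Promoter letters were counted in RefSeq promoters (GRCh38.p14), and sequences are RefSeq's.

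The members, roles and other lists were chosen with earlier results of these data known. Library values are given for DDX3X, for members called in the 7 comparisons (0), for the 2 members of each role with the smallest p in parental cells and for all 4 G1/S regulators, and any other member given with library values was chosen after its values were seen; in other lists up to 4 called genes or the 2 with the smallest p are named. Deviations from the group means of libraries with the same number correlated at 0.570, 0.201 and 0.280 in parental cells. The correlations were 0.232, -0.0279 and 0.300 in DDX3Xoe and 0.0745, 0.114 and 0.238 in DDX3Yoe cells. The main fit of the 7 comparisons held no pairing, and same-numbered pairs are given as a description in every kind of cell.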

Additional observations from a re-analysis of the deposited data

How the results depend on the processing

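The count of called members was 0 of 46 in all 7 comparisons under every alternative run, the replicate block included, which called 0 members but 677 genes in parental cells, against 271 without it. Of 399 values of the 20 named members under alternatives in parental cells 0 passed the threshold, the lowest adjusted p being 0.0510 for E2F2 with the replicate block, and 9 turned their sign. These were UHRF1 with edgeR (-0.30), with DESeq2 (-0.27), without parental guide 395 replicate 1 (-0.16), without parental AAVS1 replicate 3 (-0.68) and without replicate 3 (-0.67), FEN1 without parental guide 395 replicate 1 (-0.042), RPA1 without parental AAVS1 replicate 1 (0.045), and CCNE1 without that library (-0.16) or without replicate 1 (-0.14). The cause was not tested. With libraries left out, UHRF1 ranged up to 0.91, FEN1 to 1.08, CCNE1 to 0.40 and RPA1 down to -0.51. The parental median of the members lay between -0.63 and -0.18 with libraries left out and between -0.46 and -0.39 under the other settings. The 22 members called for the replicate number, beside 6.02% of all genes, became 8 (1.96% of all genes) without both libraries labelled DDX3Xoe replicate 1, 16 (1.72%) in DDX3Yoe, 0 (0%) in DDX3Xoe and 6 (11.4%) in parental libraries alone, 17 (2.01%) without a filter, 25 (8.51%) with a filter of 50, 22 (6%) in edgeR and 32 (14.3%) in DESeq2. With 1 library left out it was 8 to 30, beside 2.04 to 17.9% of all genes. Depth limits POLE2, PRIM1, UHRF1, ORC1, E2F2 and PRIM2 most, since at least 1 library held under 10 normalised reads of each.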

Other observations

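Summed reads of a role per 1e6 reads of the library show how the polymerase and primase genes and the nucleotide supply genes varied by library. Nucleotide supply genes together had 275, 175 and 60.6 reads per 1e6 in the libraries labelled DDX3Xoe with guide 395, against 349, 128 and 81.1 with AAVS1. In DDX3Yoe cells they had 204, 168 and 74.9 with guide 395, against 313, 193 and 65.8 with AAVS1, and in parental cells 107, 124 and 90.5 with guide 395, against 285, 216 and 88.7 with AAVS1. Polymerase and primase genes together had 161, 176 and 75.7 reads per 1e6 in the libraries labelled DDX3Xoe with guide 395, against 136, 146 and 85.2 with AAVS1. In DDX3Yoe cells they had 154, 136 and 93.8 with guide 395, against 175, 144 and 83.5 with AAVS1, and in parental cells 85.2, 106 and 103 with guide 395, against 126, 85.3 and 95.2 with AAVS1. The nucleotide supply sum was lowest in replicate 3 in all 6 groups, and the polymerase and primase sum in 4 groups, all but those of parental cells. The difference between the roles was not tested.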
